A study of Homo sapiens with 32 samples.

Results

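The neuropeptide Y system and cholecystokinin are described here in Ewing sarcoma cells through 6 genes of 28278 in the count tables, chosen by name: NPY, NPY1R, NPY2R, NPY5R, DPP4 and CCK. All 6 symbols were found in the count tables, and all were found by Ensembl gene among the 60199 genes of the knockdown table. RNA was measured in 32 libraries of 3 established Ewing sarcoma cell lines, all carrying the EWS::FLI1 fusion, to learn what loss of the cohesin subunit STAG2 does to expression. In A673 cells, experiments 1 and 2 compared STAG2 knockout (KO) clones with STAG2-proficient controls, experiment 2 also held KO clones of EZH2 and SUZ12, which encode core subunits of Polycomb repressive complex PRC2, experiment 3 held KO clones of STAG1, and experiment 4 compared siRNA against STAG2 (siSTAG2) with mock transfection (siC). SK-N-MC cells were sequenced with and without STAG2 KO, and A4573 cells, which lack STAG2, with and without its repair by knock-in (KI), with 1 library each.

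The A673 controls were of 2 kinds: parental cells, with no editing, and the WT clone, a single clone with inducible Cas9 (iCas9) from which the KO clones were derived. Experiment 1 had 2 WT clone, 1 parental and 2 STAG2 KO libraries. Experiment 2 had 2 WT clone and 1 parental library and 3 clones each of STAG2 KO, EZH2 KO and SUZ12 KO. Experiment 3 had 1 WT clone, 1 parental and 3 STAG1 KO libraries, and experiment 4 had 3 libraries in each arm. Every library of the SK-N-MC and A4573 pairs is labelled iCas9, and the A4573 library labelled WT is the one without STAG2. Each KO library is 1 clone, so the spread within a KO group is a spread between clones, whereas repeat WT clone libraries are the same clone. Nothing in the labels ties WT clone libraries to separate cultures, so p-values measure the spread between these libraries.

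Neuropeptide Y (NPY) is a peptide of sympathetic neurons that acts on the G protein-coupled receptors Y1, Y2 and Y5, encoded by NPY1R, NPY2R and NPY5R. Dipeptidyl peptidase 4, encoded by DPP4, is a cell-surface protease that clips a dipeptide from the amino end of NPY, and the shortened peptide no longer acts well on Y1 but still acts on Y2 and Y5. Ewing sarcoma cells are known for making NPY together with its receptors, an autocrine loop, and for making cholecystokinin (CCK), a gut and brain peptide that also signals through G protein-coupled receptors. EWS::FLI1 binds tandem GGAA repeats, which in these cells can work as enhancers, and cohesin helps to bring enhancers and promoters together.

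The DNA upstream of CCK stood out among the members for such repeats. CCK (GRCh38 chr3:42257825-42266185, minus strand) had tandem GGAA repeats upstream of its annotated start, the nearest run being of 11 repeats at 363 bases and reading GGAA on the strand of the gene. Within 1000 bases upstream, 31 of 25763 gene starts held a run of 8 or more repeats on either strand (0.12%), and CCK was the only member among them. The window of 150 bases around this run is shown because no other member has such a run this near its start; it is genome sequence of build hg38, read 5′ to 3′ on the minus strand, with every stretch of 2 or more GGAA in capitals.
Run of 11, chr3:42266473-42266622: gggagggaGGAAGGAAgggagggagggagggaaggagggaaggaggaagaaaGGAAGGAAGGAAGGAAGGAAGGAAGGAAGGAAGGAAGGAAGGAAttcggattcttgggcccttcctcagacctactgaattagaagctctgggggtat

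The other members had no long run close by. The closest run of 4 or more repeats was one of 4 repeats 31.7 kb downstream of the start of NPY (chr7:24284188-24291862, plus strand), and one of 7 repeats 13.4 kb downstream of the start of DPP4 (chr2:161992245-162074394, minus strand), within that gene. The starts of NPY1R (chr4:163323962-163344832, minus strand) and NPY5R (chr4:163343892-163351934, plus strand) lie 940 bases apart, and their closest run, of 10 repeats, lay 101.7 kb downstream of the NPY5R start, upstream of NPY1R. NPY2R (chr4:155208636-155217078, plus strand), 8.14 Mb from NPY1R, had its only run within 500 kb, of 16 repeats, at 269.2 kb. Runs at such distances are common: 71.1% of gene starts had a run of 8 or more within 500 kb on either side, and the median longest run was 12 repeats. A match is a description of the letters and not of binding. The 250 bases upstream of NPY, the member with the largest change on STAG2 KO among those tested, are shown with each CG in capitals.
NPY, chr7:24283938-24284187, plus strand: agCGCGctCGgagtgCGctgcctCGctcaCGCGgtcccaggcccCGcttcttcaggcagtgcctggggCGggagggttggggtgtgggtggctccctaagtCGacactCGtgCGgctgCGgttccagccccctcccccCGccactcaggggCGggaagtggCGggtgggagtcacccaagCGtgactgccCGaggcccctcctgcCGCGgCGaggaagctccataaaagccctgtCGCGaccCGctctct
They held 24 CG dinucleotides, more than 79.2% of the 25763 gene starts, whose median was 10, and no 2 GGAA in tandem. CCK had 10 CG in the same window, DPP4 8, NPY5R 22, NPY2R 14 and NPY1R 1.

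Total counts ran from 15734628 to 20663679 in the A673 libraries of experiments 1 to 3, from 29322507 to 32261248 in the pairs, and from 6852340 to 8184632 reads recovered for the knockdown. Levels are given as normalized CPM, the usual CPM (counts scaled to a library's total) with library totals adjusted by the trimmed mean of M-values (TMM) over the 26 count libraries together. A count of 3 in a library, the limit that a count of 0 allows, is 0.089 to 0.192 normalized CPM. STAG2 RNA lay between 249.9 and 348.6 normalized CPM in the 6 STAG2-proficient libraries of experiments 1 and 2, between 43.79 and 70.35 in 4 STAG2 KO libraries and at 189.3 in 1 of experiment 1, whose column carries the number 24. In experiment 3, STAG1 was at 57.46 and 68.73 in the controls but at 62.05 in 1 of the 3 libraries labelled STAG1 KO, and its fall did not pass the test (adjusted p = 0.376, edgeR quasi-likelihood test). Of 7 Ewing sarcoma markers, 6 had at least 445 counts in each of the 26 libraries, while CD99 was listed at 0 in all of them. In the knockdown libraries, which are A673 cells in a separate table, CD99 had 3356 to 6943 reads, so the 0 belongs to the count tables and is not a level in the cells. In STAG2 KO 1 of the 6 rose, NR0B1 (log2 fold change 0.78), and 2 fell, among them PRKCB (-0.97). The 6 markers of other cell types reported here summed to 0.589 to 1.82 normalized CPM in the controls and STAG2 KO libraries of experiments 1 and 2. In bulk RNA, fewer cells of a kind and less RNA per cell cannot be told apart.

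In unedited and WT clone A673 cells, NPY and NPY1R were the most abundant members per length and NPY2R was not detected. Length here is the union of the exons of all annotated transcripts of a gene, which can exceed the length of any 1 transcript. Over the 8 control libraries, the mean normalized CPM per kb of exon was 59.01 ± 17.7 (SD, n = 8) for NPY1R and 41.37 ± 26.2 for NPY. These 2 ranges overlapped, from 34.58 to 91.53 for NPY1R and from 20.88 to 98.68 for NPY. NPY5R followed at 9.487 ± 4.15 (3.682 to 17.7, below every NPY value), then CCK at 2.419 ± 2.03 (0.9451 to 7.117, overlapping NPY5R) and DPP4 at 0.0143 ± 0.0104, with no library above 0.03391. The siC libraries of experiment 4, whose values are on another scale, gave another order. Per kb, NPY was at 1038 ± 34 (SD, n = 3), NPY1R at 110.3 ± 6.28, CCK at 59.65 ± 4.17 and NPY5R at 9.902 ± 1.7. The cause of this difference was not tested. NPY1R was higher than NPY5R per kb in each of the 26 libraries, by 2.94- to 30.8-fold. NPY1R and NPY5R share 528 exonic bases on opposite strands, 13.3% of NPY1R and 15.8% of NPY5R, and CCK shares 671 (32.5%) with an antisense lncRNA, ENSG00000281160. The libraries were non-directional, so reads in those bases cannot be told apart between the partners.

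NPY2R, the Y2 receptor gene, had 0 counts in 23 of the 26 libraries and 0 reads in the 6 knockdown libraries. It had 1 count in SUZ12 KO clone 2, 1 in A4573 without STAG2 and 15 in SK-N-MC with STAG2 KO, where it was at least 5.42-fold higher than the floor of 3 counts in SK-N-MC WT. NPY2R therefore passed no filter on low counts in A673, and no test of it was made there. Counts of members called below are of those tested.

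STAG2 KO in A673 went with less NPY and less of both detected NPY receptors, and the peptide changed most. Of 4 members tested, 3 fell and none rose, against 12.4% of 13574 genes called in either direction (edgeR quasi-likelihood test, Benjamini-Hochberg adjusted p under 0.05). NPY, NPY1R and NPY5R fell, and CCK did not pass the test. The median of all genes was 0.041 on the log2 scale.

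NPY in experiment 1 was at 23.87 and 24.76 normalized CPM in the WT clone and 18.65 in parental cells, against 3.226 and 1.221 in the STAG2 KO libraries of columns 5 and 24. In experiment 2 it was at 31.8 and 31.43 in the WT clone and 22.78 in parental cells, against 1.822, 1.408 and 3.905 in STAG2 KO clones 3, 2 and 5. The groups did not overlap in either experiment: the highest KO library, at 3.905, was below the lowest control, at 18.65. The means were 25.55 ± 5.15 (SD, n = 6) and 2.317 ± 1.19 (n = 5), and NPY fell 11.2-fold (log2 fold change -3.49, SE 0.332, adjusted p = 0.000125, edgeR). The library of column 24, which kept 189.3 normalized CPM of STAG2, had the lowest NPY of the 5.

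NPY5R, the Y5 receptor gene, was at 38.6, 36.79 and 25.47 normalized CPM in the WT clone and parental libraries of experiment 1, against 11.35 and 11.16 in STAG2 KO. In experiment 2 it was at 21.83, 29.7 and 12.29 in the same kinds of control, against 6.644, 6.366 and 15.51 in STAG2 KO clones 3, 2 and 5. The groups were apart in experiment 1 but overlapped in experiment 2, where clone 5 exceeded the parental library. NPY5R fell 2.56-fold over both (log2 fold change -1.36, SE 0.309, adjusted p = 0.0152, edgeR), and with experiment 2 alone the change was -1.17 with an adjusted p of 0.19.

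NPY1R, the Y1 receptor gene, separated the experiments. In experiment 1 the controls were at 201.6, 206 and 235.3 normalized CPM and the STAG2 KO libraries at 139.4 and 235.4, the latter of column 24. In experiment 2 the controls were at 250.6, 297.3 and 137.6, the last being parental, and STAG2 KO clones 3, 2 and 5 at 67.78, 79.26 and 54.3. The groups overlapped in experiment 1 and not in experiment 2. Over both, NPY1R fell 2.09-fold (log2 fold change -1.06, SE 0.316) and passed the threshold barely (adjusted p = 0.0496, edgeR). It was -0.23 with an adjusted p of 0.459 in experiment 1 alone, and leaving out any 1 library other than that of column 24 raised the adjusted p above the threshold, to between 0.0504 and 0.13. The difference of the STAG2 KO effect between the experiments was -1.59 for NPY1R (adjusted p = 0.0812, edgeR). That comparison called 0 of 5 members and 0 of 14616 genes (0%), with 4483 genes at an unadjusted p under 0.05.

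DPP4, the NPY-clipping protease, was near the floor in A673 and failed the filter on low counts in this comparison. The controls of experiments 1 and 2 had 2 to 9 counts, or 0.1165 to 0.4894 normalized CPM. STAG2 KO libraries had 8 to 36 counts: 1.016 and 1.744 normalized CPM in experiment 1 and 0.9644, 0.4507 and 1.926 in clones 3, 2 and 5. The means, 0.2592 ± 0.132 (SD, n = 6) and 1.22 ± 0.607 (n = 5), differ 4.71-fold, and the groups overlapped through clone 2. With no filter on low counts, DPP4 rose by a log2 fold change of 2.18 (SE 0.486, adjusted p = 0.0147 over 21063 genes, edgeR), from a level at which a few reads set the value.

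CCK overlapped between the genotypes and differed between the kinds of control. It was at 3.319 and 2.586 normalized CPM in the WT clone and 6.566 in parental cells of experiment 1, against 9.32 and 2.151 in STAG2 KO. In experiment 2 it was at 3.087 and 2.914 in the WT clone and 14.68 in parental cells, against 17.04, 13.97 and 6.634 in STAG2 KO clones 3, 2 and 5. Each parental library exceeded at least 1 KO library. The log2 fold change of STAG2 KO was 0.68 (SE 0.527, adjusted p = 0.46, edgeR). It was called in none of 19 alternatives but its size moved with the libraries used, from 0.37 without the library of column 5 (adjusted p = 0.791) to 1.22 without the parental library of experiment 2 (0.202) and 1.525 with the WT clone as the only control (0.0969).

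**Figure D1:**
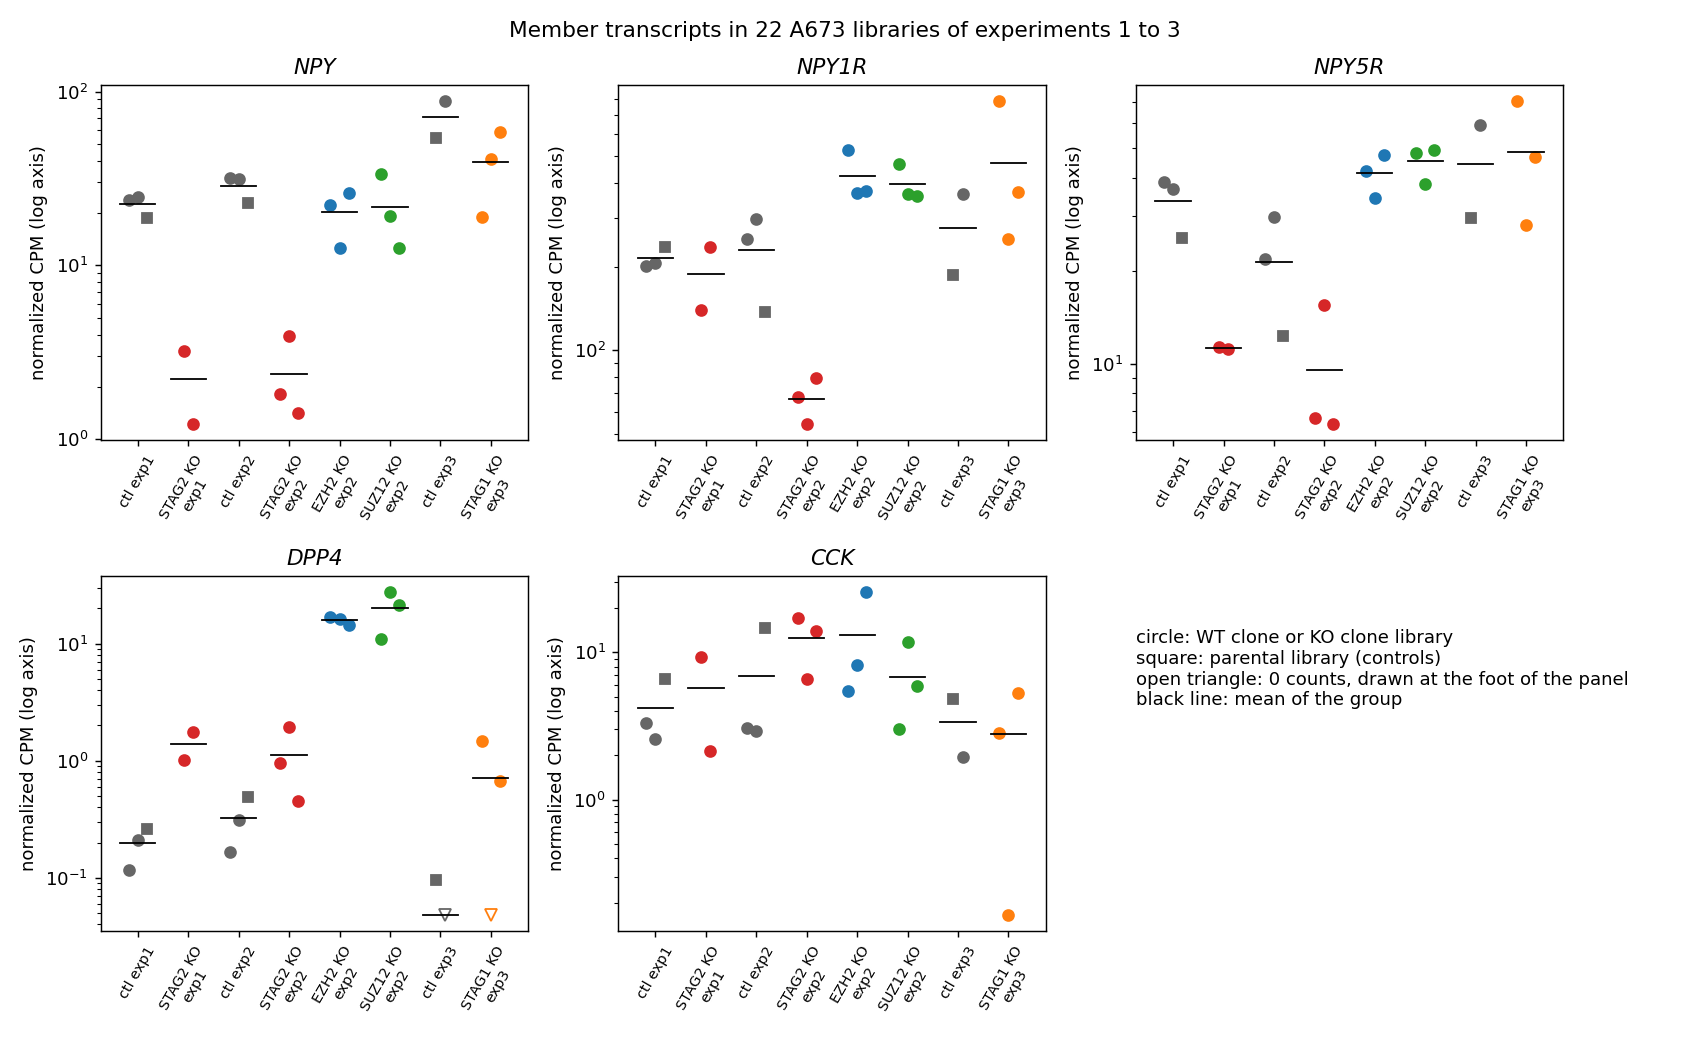
Normalized CPM (log scale) of the members detected in A673, with 1 point per library of experiments 1 to 3, by group; squares are parental libraries, black lines group means and open triangles 0 counts. NPY in STAG2 KO lies at 1.221 to 3.905, below every other A673 library, and DPP4 at 10.99 to 27.64 in the EZH2 KO and SUZ12 KO clones, above every other A673 library.

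The 2 kinds of control differed in some members: 3 of 4 members tested were called, against 2.72% of 14167 genes. CCK was 3.15-fold lower in the WT clone than in parental cells (log2 fold change -1.66, SE 0.233, adjusted p = 0.00755, edgeR over experiments 1 to 3). It was at 1.95 to 3.319 normalized CPM in the 5 WT clone libraries (mean 2.771 ± 0.531) and at 6.566, 14.68 and 4.823 in the parental libraries (8.69 ± 5.26, n = 3), with no overlap. NPY was 1.42-fold higher in the WT clone (log2 fold change 0.51, adjusted p = 0.0213), as was NPY5R by 1.81-fold (0.86, adjusted p = 0.0126). NPY1R was not called (0.52, adjusted p = 0.252). The KO clones were derived from the WT clone, and with the WT clone as the only control NPY1R was lower by -1.22 on the log2 scale in STAG2 KO, with an adjusted p of 0.0727.

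Knockdown of STAG2 by siRNA, which needs no clone, also lowered NPY and both detected receptors, and lowered CCK as well. Of 4 members tested, 4 fell, against 20.5% of 12060 genes called in either direction (limma on log2 of the deposited value plus 1). STAG2 itself was at 1068, 992 and 1090 deposited normalized reads in siC and at 144.2, 179.9 and 152.6 in siSTAG2. The values of this experiment are on another scale than CPM and are not compared with it.

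NPY was at 905.5, 913.2 and 961.6 normalized reads in siC 1, 2 and 3 and at 248.5, 272.6 and 267.6 in siSTAG2 1, 2 and 3. CCK was at 132.5, 121 and 115.6 in siC and at 49.93, 49.14 and 56.03 in siSTAG2. Both groups were apart by more than their spread: NPY fell 3.52-fold (log2 fold change -1.81, SE 0.0736, adjusted p = 7.88e-16, limma). CCK fell 2.35-fold (-1.24, SE 0.148, adjusted p = 5.93e-07, limma).

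NPY1R was at 413.7, 439.9 and 463.6 normalized reads in siC and at 257.4, 261.5 and 286.9 in siSTAG2, a 1.63-fold fall without overlap (log2 fold change -0.71, SE 0.0837, adjusted p = 4.83e-07, limma). NPY5R was at 37.17, 26.57 and 35.42 in siC and at 14.42, 17.62 and 18.35 in siSTAG2. It fell 1.9-fold (-0.93, SE 0.26, adjusted p = 0.0117, limma), a call that was lost without siC 1 (adjusted p = 0.0643) or without siC 3 (0.0541). DPP4 was at 0 or about 1 read in every library of both arms and was not tested.

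**Figure D2:**
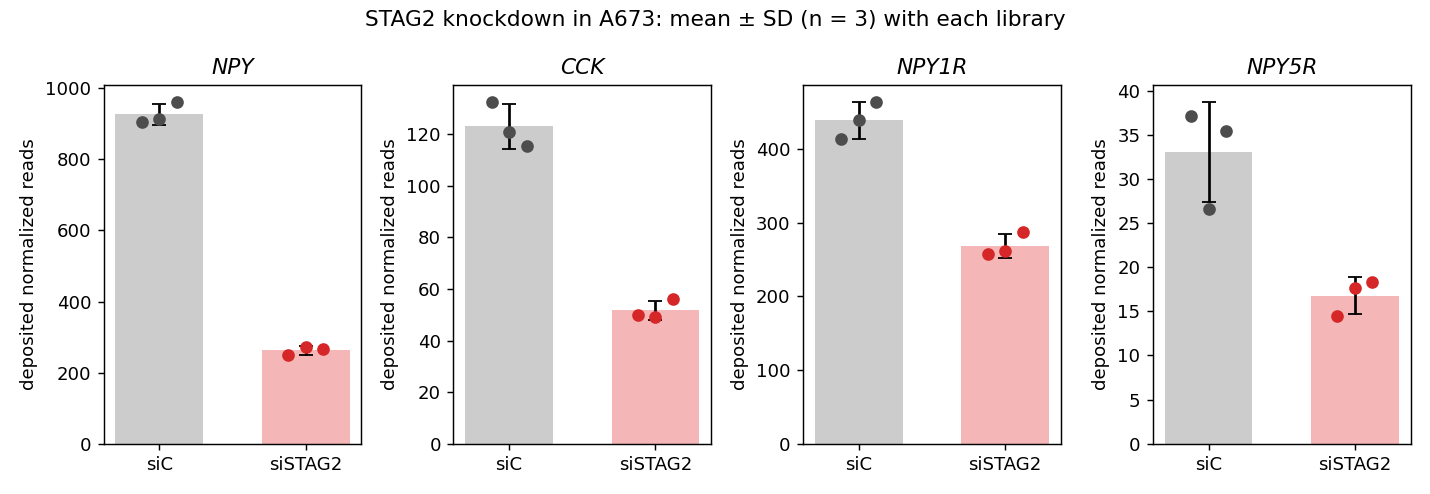
Deposited normalized reads of 4 members in experiment 4; bars are means, error bars SD (n = 3 per arm) and points single libraries. In each panel every siSTAG2 point lies below every siC point, with NPY at 248.5 to 272.6 against 905.5 to 961.6.

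Loss of the PRC2 subunits changed another member most: DPP4, near the floor in control cells, rose to a measurable level in all 6 clones. In EZH2 KO, 2 of 5 members tested rose, against 15.7% of 15130 genes called in either direction, and in SUZ12 KO 3 of 5 rose, against 20.6% (edgeR, 1 fit of the 12 libraries of experiment 2). DPP4 was among the 5 because it passed the filter on low counts through the EZH2 KO and SUZ12 KO libraries, having failed it in the STAG2 KO comparison. These counts of members therefore include a gene admitted by its own rise. Both comparisons use the same 3 control libraries. NPY was called in neither, and neither was CCK.

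DPP4 was at 16.87, 16.28 and 14.32 normalized CPM in EZH2 KO clones 1, 2 and 3 and at 10.99, 27.64 and 21.49 in SUZ12 KO clones 1, 2 and 3. The controls of experiment 2 were at 0.1653, 0.31 and 0.4894. These are 293 to 347 counts in EZH2 KO and 227 to 618 in SUZ12 KO, against 3 to 9 in the controls, with no overlap. DPP4 rose 49-fold in EZH2 KO (log2 fold change 5.62, SE 0.589, adjusted p = 0.000169, edgeR). It rose 62.5-fold in SUZ12 KO (5.97, SE 0.595, adjusted p = 8.8e-05, edgeR).

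The receptor genes rose less and with less certainty. NPY1R was at 522.5, 368.4 and 374.5 normalized CPM in EZH2 KO clones 1, 2 and 3 and at 467.4, 364.7 and 358.1 in SUZ12 KO clones 1, 2 and 3, each above the 3 controls (250.6, 297.3 and 137.6). It rose 1.88-fold in EZH2 KO (log2 fold change 0.91, SE 0.261, adjusted p = 0.0358, edgeR) and 1.78-fold in SUZ12 KO (0.83, SE 0.26, adjusted p = 0.0421, edgeR). Without WT clone library 1, without the parental library or without any 1 KO clone of the group, both calls were lost, with adjusted p from 0.0544 to 0.124 in EZH2 KO and from 0.0532 to 0.145 in SUZ12 KO.

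NPY5R was at 42.11, 34.46 and 47.18 normalized CPM in EZH2 KO clones 1, 2 and 3, and at 47.89, 38.15 and 49.23 in SUZ12 KO clones 1, 2 and 3. The controls, at 21.83, 29.7 and 12.29, were lower than all 6. It rose 2.17-fold in SUZ12 KO (log2 fold change 1.12, SE 0.364, adjusted p = 0.0489, edgeR), again a call lost without WT clone library 1, without the parental library or without any 1 SUZ12 KO clone (adjusted p from 0.0785 to 0.156). In EZH2 KO it was not called (0.98, adjusted p = 0.0916).

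The peptides did not separate from the controls. NPY was at 22.32, 12.62 and 26.23 normalized CPM in EZH2 KO clones 1, 2 and 3 and at 33.41, 19.19 and 12.57 in SUZ12 KO clones 1, 2 and 3, overlapping the controls at 22.78 to 31.8 (adjusted p = 0.478 and 0.563). CCK was at 5.446, 8.17 and 25.75 in EZH2 KO and at 3.002, 11.67 and 5.875 in SUZ12 KO, overlapping the controls at 2.914 to 14.68 (adjusted p = 0.419 and 0.982). CCK in EZH2 KO turned on clone 3, whose omission took the log2 fold change from 0.95 to 0.01. Without the parental library, the CCK values were 2.13 in EZH2 KO and 1.21 in SUZ12 KO, neither of which was called (adjusted p = 0.109 and 0.303).

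The PRC2 clones were also compared with each other, EZH2 KO against SUZ12 KO. Of 5 members 0 were called, against 0.00661% of 15130 genes, and 0 had an unadjusted p under 0.05 (edgeR). The only gene called was EZH2 itself, and SUZ12 was not called (log2 fold change 1.73, adjusted p = 0.0663, edgeR). An absence of calls here therefore says little about the members. For DPP4 the difference was -0.35 (SE 0.446, adjusted p = 0.999). The direct contrasts with STAG2 KO need no control and came from the same fit, so they used only the 3 STAG2 KO clones of experiment 2. They called 4 of 5 members in each, against 20.4% of genes for EZH2 KO and 25.8% for SUZ12 KO. The 4 include DPP4, which passed the filter through the PRC2 clones. For NPY1R the STAG2 KO clones used were at 54.3 to 79.26 normalized CPM, below the STAG2 KO libraries of experiment 1 (139.4 and 235.4). STAG2 KO was lower than EZH2 KO in NPY (log2 fold change -3.12, adjusted p = 0.000985), in NPY1R (-2.68, 8.34e-05), in NPY5R (-2.14, 0.00257) and in DPP4 (-3.84, 0.000522). Against SUZ12 KO the values were -3.22 for NPY, -2.60 for NPY1R, -2.27 for NPY5R and -4.19 for DPP4, with adjusted p from 8.65e-05 to 0.00145. CCK was called in neither (adjusted p = 0.944 and 0.454).

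Markers of other cell types moved beside the PRC2 results. The 6 markers of other cell types summed to 0.87 to 1.43 normalized CPM in the controls of experiment 2, with 2 of the 6 at 0 in every control, to 2.83 to 3.35 in EZH2 KO and to 3.39 to 8.01 in SUZ12 KO, where each of the 6 had counts in at least 1 library. Their part in the result was not tested. Tested neighbours of DPP4 rose too: within 500 kb, FAP (log2 fold change 4.19), GCA (4.46) and IFIH1 (4.05) were called higher in EZH2 KO, 3 of 3 tested out of 5. In SUZ12 KO, GCA (4.50) and IFIH1 (4.36) were called, 2 of 3 tested. Only 1 of the 5 passed the filter on low counts in the STAG2 KO comparison. Here a neighbour low in the controls could pass it through the KO libraries, so these shares were partly set by the filter. FAP encodes a protease related to DPP4, and IFIH1 a cytoplasmic sensor of double-stranded RNA. In STAG2 KO, the 1 neighbour of DPP4 tested, GCA, fell (-2.42, adjusted p = 0.0124). Of the neighbours tested for NPY (1), CCK (7) and the NPY1R and NPY5R locus (2, leaving out the receptor genes themselves), none was called in any KO comparison. In the knockdown TMA16, by the NPY1R and NPY5R locus, rose slightly (0.20, adjusted p = 0.0179, limma), 1 of 2 tested. Near NPY2R, itself not tested, GUCY1A1, a subunit gene of soluble guanylate cyclase, rose in EZH2 KO (5.28, adjusted p = 0.00513) and SUZ12 KO (6.29, adjusted p = 0.00124), 1 of 2 tested. GUCY1A1 too was filtered out of the STAG2 KO comparison. MAP9, a microtubule-associated protein gene on the same side, rose in STAG2 KO (0.62, adjusted p = 0.0149, edgeR) and in the knockdown (0.23, adjusted p = 0.0356, limma).

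**Figure D3:**
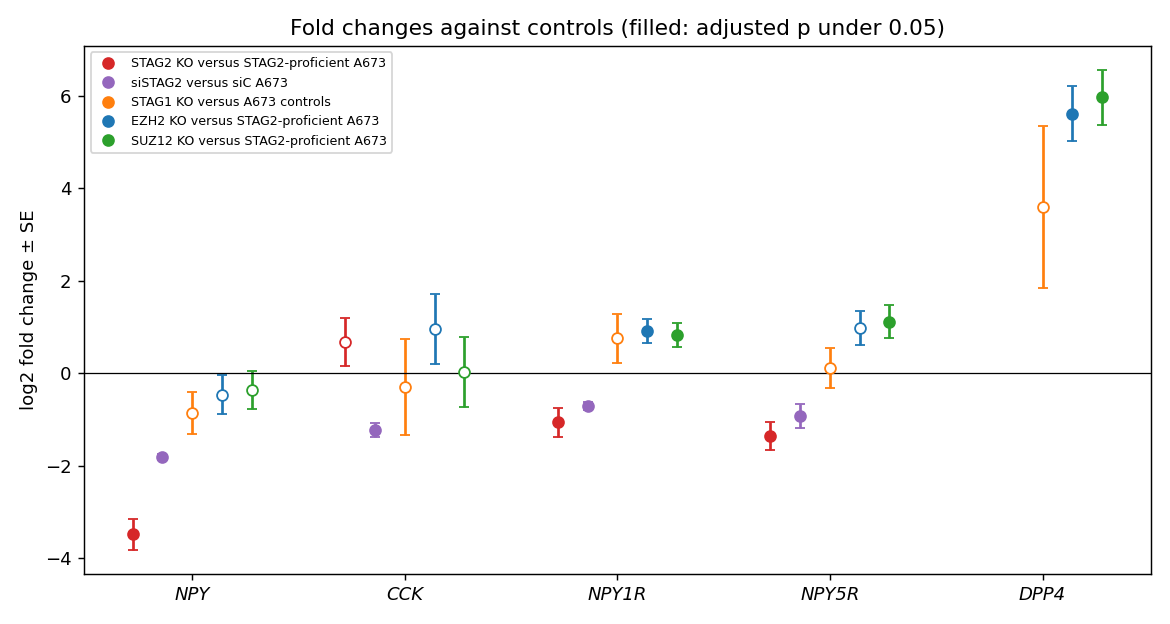
Log2 fold change of each member in the 5 comparisons of A673 cells against their controls, with bars for the standard error; filled points passed the test at an adjusted p under 0.05 and open points did not, and a member filtered out has no point. NPY lies at -3.49 for STAG2 KO and -1.81 for siSTAG2, and DPP4 at 5.62 and 5.97 for EZH2 KO and SUZ12 KO.

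KO of STAG1, the other STAG subunit of cohesin in these cells, gave no call among the members: 0 of 5 tested and 0 at an unadjusted p under 0.05, against 5.27% of 14373 genes called (edgeR). NPY was at 54.11 normalized CPM in parental cells and 88.12 in the WT clone, and at 19.04, 40.66 and 58.36 in the libraries of columns 1, 5 and 7. The groups overlapped, and the log2 fold change was -0.86 (SE 0.45, adjusted p = 0.291). The NPY controls of this experiment were above the controls of experiments 1 and 2, at 18.65 to 31.8, a difference between experiments that was not tested.

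NPY1R was at 186.4 and 364.3 normalized CPM in the parental and WT clone libraries and at 786, 251 and 371.6 in STAG1 KO (log2 fold change 0.75, adjusted p = 0.418). NPY5R was at 29.56 and 59.09 against 70.71, 28.07 and 46.47 (0.11, adjusted p = 0.904), and CCK at 4.823 and 1.95 against 2.821, 0.1648 and 5.329 (-0.30, adjusted p = 0.887). In all 3 genes the groups overlapped. DPP4 was at 0.09646 and 0 against 1.474, 0 and 0.6661 (3.60, SE 1.75, adjusted p = 0.259). The library of column 1, whose STAG1 RNA lay within the controls, had the highest NPY1R, NPY5R and DPP4 of the group and the lowest NPY.

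For NPY the 2 STAG effects differed: the STAG2 KO effect minus the STAG1 KO effect was -2.66 on the log2 scale (SE 0.588, adjusted p = 0.0161, edgeR), 1 of 5 members called against 6.01% of 15041 genes. The difference was -1.85 for NPY1R (adjusted p = 0.126), -1.51 for NPY5R (0.153), -1.47 for DPP4 (0.699) and 0.93 for CCK (0.765), none of them called. STAG1 RNA remained high in 1 of the libraries labelled STAG1 KO, whose part in this difference was not tested.

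In the 2 other lines the members went in different directions without STAG2: NPY1R was lower in both, CCK higher in both, and DPP4 higher in SK-N-MC and lower in A4573. These pairs have 1 library each, so ratios carry a 95% exact counting interval, which covers counting error only, and no p-value. Changes of at least 2-fold were seen in 4 of 6 members in SK-N-MC, against 21.5% of 16413 genes, and in 4 of 4 in A4573, against 21.9% of 16124. A gene needed at least 10 counts over the 2 libraries of a pair to be included. NPY2R, 1 of the 4 in SK-N-MC, was included through its 15 counts with STAG2 KO, against 0 in WT. It could therefore count only as a rise. STAG2 RNA without over with STAG2 was 0.632 in SK-N-MC and 0.382 in A4573.

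SK-N-MC had a higher CCK and a lower NPY level than any A673 control. CCK was at 52.59 normalized CPM in the WT library and 182.9 with STAG2 KO, a ratio of 3.48 (3.3 to 3.67), and both values were above all 22 A673 libraries, whose highest was 25.75. NPY was at 3.708 in WT and 9.2 with KO, a ratio of 2.48 (2 to 3.09), which is opposite in direction to the A673 clones and the knockdown. DPP4 was at 0.6526 and 3.764, a ratio of 5.77 (3.64 to 9.55) on 22 and 117 counts. NPY1R was at 225.4 and 154.4, a ratio of 0.685 (0.661 to 0.71), and NPY5R at 6.14 and 7.399, with a ratio of 1.2 whose interval, 0.994 to 1.46, includes no change. The KO library also had a higher sum of the 6 markers of other cell types, 69.8 normalized CPM against 5.28 in WT, 6 of 6 being above 0 in both. Most of it was the blood cell gene PTPRC, at 57.1 against 2.94, with 0.222 as the highest value in A673. MYOD1 was lower in the KO library, at 0.0643 against 0.208. Neither the source of this marker RNA nor its part in the result was tested.

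A4573 had no NPY counts in either library, so NPY was under the floor of 3 counts with and without STAG2. NPY1R was at 67.43 normalized CPM without STAG2 and 211.8 with KI, a ratio without over with STAG2 of 0.318 (0.303 to 0.334). NPY5R was at 3.59 and 19.97, a ratio of 0.18 (0.146 to 0.219). Both receptor genes were thus lower without STAG2, the direction of the A673 comparisons. DPP4 was at 1.454 and 5.039, a ratio of 0.289 (0.204 to 0.401), opposite to SK-N-MC. CCK had 38 counts without STAG2 and 3 with KI, a ratio of 12.8 (4.07 to 65). The 6 other-cell markers summed to 1.02 normalized CPM without STAG2 and 2.35 with KI.

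**Figure D4:**
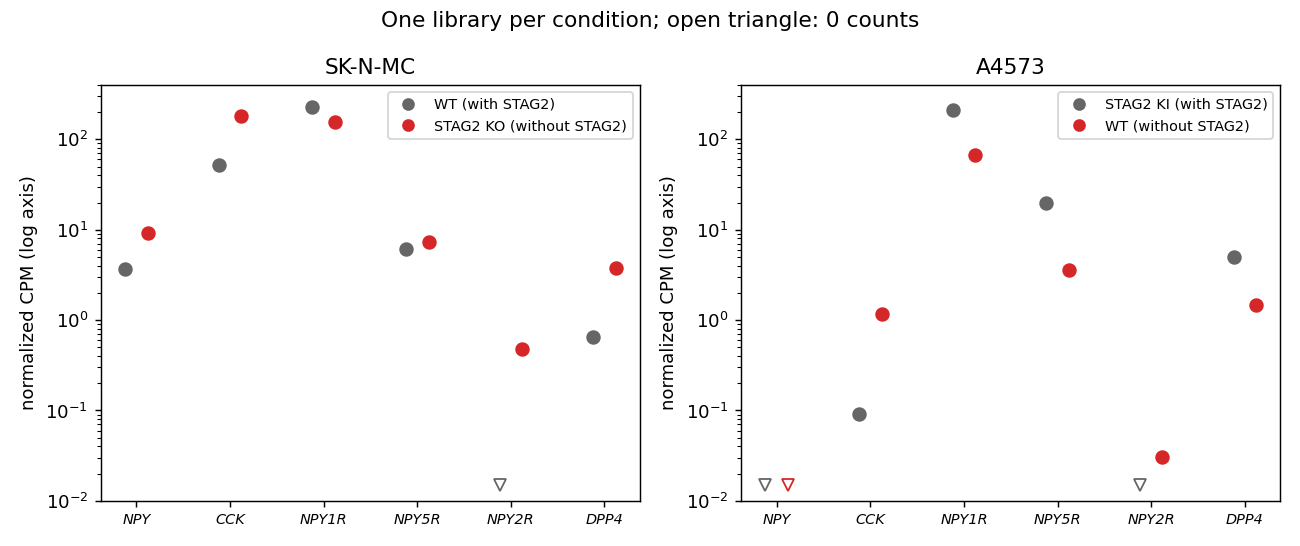
Normalized CPM (log scale) of the members in the SK-N-MC and A4573 pairs, with 1 library per point, grey with STAG2 and red without; open triangles mark 0 counts. CCK is higher without STAG2 in both lines, at 182.9 against 52.59 in SK-N-MC and 1.176 against 0.09162 in A4573, whereas DPP4 goes opposite ways.

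Across the STAG2 KO clones, the knockdown and both pairs, NPY1R was the member whose value was below its control in each: -1.06 in A673 clones, -0.71 in knockdown, -0.54 in SK-N-MC and -1.62 in A4573 on the log2 scale, though in A673 clones of experiment 1 alone it was -0.23 and not called. CCK was not: -1.24 in the knockdown, 0.68 and not called in A673 clones, 1.80 in SK-N-MC and 3.04 in A4573. These values come from separate fits and tables, and their differences were not tested.

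The other genes of peptide signalling were counted from fixed lists. Of all genes tested, 12.4% were called in either direction in STAG2 KO, 15.7% in EZH2 KO, 20.6% in SUZ12 KO, 5.27% in STAG1 KO and 20.5% in the knockdown, and in lists this short a share near these says little about the list. None of the 5 other genes of the NPY family (PYY, PPY, NPY4R, NPY4R2 and NPY6R) was abundant enough to be tested in A673. Of 22 other neuropeptide genes, 7 were tested in STAG2 KO, and 4 fell and 0 rose, with a median log2 fold change of -1.89 beside 0.04 for all genes. In the knockdown 6 were tested, and 4 fell and 0 rose, with a median of -1.27 beside 0.01. Those that fell in both included GRP, the mammalian bombesin-like peptide (209.6 ± 32.3 normalized CPM, n = 6, against 10.78 ± 10.3, n = 5; log2 fold change -4.75, adjusted p = 0.0012, edgeR), PENK, the enkephalin precursor (-4.59, adjusted p = 0.00081), and CALCB, a calcitonin gene-related peptide (-3.65, adjusted p = 0.000173). In EZH2 KO 6 of 13 rose and 0 fell, and in SUZ12 KO 7 rose and 1 fell. More genes were tested here than in STAG2 KO, because a gene low in the controls could pass the filter on low counts through KO libraries. Such a gene could be called only as a rise. Counts of rises in EZH2 KO and SUZ12 KO, here and in the lists below, were thus partly set by the filter. GAL, the galanin precursor, was among those that rose in both (3.27 and 5.04, adjusted p = 0.00202 and 0.000172, edgeR). In STAG1 KO 1 of 10 fell and 0 rose. In STAG2 KO, a gene low in the KO libraries could pass the filter through the controls, and then be called only as a fall. Counts of falls in STAG2 KO, here and in the lists below, could be partly set in this way.

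Among 11 genes for processing peptide precursors, 8 were tested in STAG2 KO, and 1 rose and 1 fell. PCSK2, a prohormone convertase of neuroendocrine cells, fell (293 ± 48.9 normalized CPM, n = 6, against 88.89 ± 14.1, n = 5; log2 fold change -1.73, adjusted p = 8.02e-05, edgeR), and it fell in the knockdown (-1.26, adjusted p = 2.64e-14, limma), the only one of 7 called there. PAM, which amidates the carboxyl end of peptides including NPY and CCK, rose in STAG2 KO (0.43, adjusted p = 0.0141) and STAG1 KO (0.60, adjusted p = 0.0265) and fell in SUZ12 KO (-0.69, adjusted p = 0.0144). In EZH2 KO 2 of 10 were higher and 0 lower, and in SUZ12 KO 2 were higher and 3 lower. The convertases PCSK6 and FURIN rose in both, PCSK6 by 3.83 and 4.22 and FURIN by 0.68 and 0.66. The 3 lower in SUZ12 KO were PAM, PCSK2 (-0.61, adjusted p = 0.0281, edgeR) and the carboxypeptidase gene CPD (-0.50, adjusted p = 0.029, edgeR), named after its values were seen. Of the 9 relatives of DPP4 and peptide-clipping proteases, 6 were tested in STAG2 KO, and XPNPEP2, an aminopeptidase, fell (-3.64, adjusted p = 0.00424) with none rising. XPNPEP2 was at 0.87 to 9.712 normalized CPM in the controls and at 0.1195 to 0.3943 in STAG2 KO, so the controls carried it through the filter. In EZH2 KO 3 of 8 rose and in SUZ12 KO 2 of 8, the latter a share close to the 20.6% of all genes, with none falling in either. DPP6, a relative of DPP4 without protease activity, rose in both, from 0 to 0.1102 normalized CPM in the controls to 1.603 ± 1.95 in EZH2 KO and 11.13 ± 3.3 in SUZ12 KO (n = 3 each), and XPNPEP1 rose in both by 0.60 and 0.62. In the knockdown 1 of 4 rose, PREP (0.30, adjusted p = 0.0126).

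The CCK receptor genes and relatives (GAST, CCKAR, CCKBR, TPST1 and TPST2) gave 2 genes tested and 0 called in STAG2 KO, in the knockdown and in STAG1 KO. In EZH2 KO and SUZ12 KO 2 of 3 rose, among them TPST2, a tyrosine sulfotransferase (0.90 and 1.11, adjusted p = 0.0345 and 0.0101, edgeR). Of 27 receptors for other neuropeptides, 8 were tested in STAG2 KO, with 2 higher and 1 lower, and 10 in each PRC2 comparison, with 3 higher and 1 lower in EZH2 KO and 4 higher and 0 lower in SUZ12 KO. OPRD1, the delta opioid receptor gene, rose in all 3 (2.88, 3.19 and 3.57), and SSTR1, a somatostatin receptor gene, fell in STAG2 KO (-4.35, adjusted p = 0.00162) and EZH2 KO (-0.96, adjusted p = 0.0463).

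The members differed in what they resembled over the 22 A673 libraries of experiments 1 to 3. Over the 11051 genes whose mean reached 5 normalized CPM, among the highest Pearson correlations of log2 levels, each set relative to the mean of its experiment's controls, were 0.922, 0.918 and 0.917 for NPY (DGCR2, PLD5 and KCNS3), 0.933, 0.924 and 0.922 for NPY1R (TMEM37, GCNT4 and BHLHE41) and 0.933 and 0.93 for NPY5R (SCNN1B and SLC7A8). DPP4 was most like DCHS2, SYNPR and RIMBP2 (0.964, 0.956 and 0.948). CCK had no close match, with RELL2, TMEM151B and ANKHD1 at 0.714, 0.682 and 0.661. Between members, r was 0.779 for NPY1R and NPY5R, 0.702 for NPY and NPY5R and 0.564 for NPY and NPY1R. These are descriptions over libraries that share clones, controls and experiments, and NPY1R and NPY5R share exonic bases.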

How the data were processed

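RNA of 32 libraries was sequenced by the authors from non-directional oligo(dT)-primed cDNA and aligned to hg38. The submitters' processing notes name TopHat2 2.0.0, Bowtie 0.12.7, SAMtools 0.1.16, FastQC and DESeq2. Raw read counts per gene symbol were deposited for 26 libraries. The knockdown table holds a signal that the authors made by dividing counts by 1 factor per library: with a tolerance of 0.01, 100% of values were whole multiples of 1 read, and edgeR on those reads was an alternative. All value columns were mapped (0 left out), but column numbers 5 and 24 (STAG2 KO, experiment 1) and 1, 5 and 7 (STAG1 KO) were not matched to labelled clones.

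Computed here with R 4.3.3, edgeR 4.0.16, limma 3.58.1 and DESeq2 1.42.0: glmQLFTest with TMM scaling and the filterByExpr filter on counts, limma (eBayes with trend) on log2(value + 1) for knockdown genes with a mean of at least 10, and log2 ratios with a prior count of 2 for the pairs. Knockdown fold changes are on that log2(value + 1) scale, which understates the change of low genes. P-values were adjusted over all genes tested and called under 0.05. STAG2 KO was fitted with experiment as a term. Fits were tested on simulated data with known changes, the same dispersion for every gene and no differences between clones or experiments. The simulation therefore does not show how the tests behave under the spread between clones seen here. Alternatives were DESeq2, its size factors, no filter, other controls, single experiments, omission of each library and a replicate block.

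The 6 members are always named; at most 4 genes per list are named, called against controls and with a mean of at least 5 normalized CPM (knockdown 50); neighbours lie within 500 kb and are named where called in the same comparison as the member, and GCA in STAG2 KO, MAP9 and GUCY1A1 were named after their values were seen. Some named genes, 1 cell type marker and some sequence are not reported here. The members and lists were chosen with earlier results of these data known. Exonic lengths and starts came from the GENCODE annotation of GRCh38, whose sequence was used. In experiment 1 both WT clone libraries were kept: their counts over 13967 genes gave an average chi-square of 1.33, beyond sampling noise but under the 9.41 to 140 of other groups.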

Additional observations from a re-analysis of the deposited data

Results flagged for a closer look

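CCK in the parental library of experiment 2, at 14.68 normalized CPM, lay apart from the other 5 STAG2-proficient libraries of experiments 1 and 2: its gap to the nearest was 0.671 of the whole range. Each of 5 members was examined in 2 groups, and in each of these 10 sets of values chance alone sets a library apart about 1 time in 20. The STAG2 KO effect on NPY differed from the STAG1 KO effect by -2.662 on the log2 scale (adjusted p = 0.0161, edgeR quasi-likelihood test).

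The values of the lines had opposite signs in 3 members, for NPY5R with 1 value within counting error of no change, and none of these differences was tested. For NPY, A673 STAG2 KO libraries lay below their controls, while the SK-N-MC log2 ratio was 1.3 in the other direction. For NPY5R the ratio without over with STAG2 was 0.27 in SK-N-MC and -2.422 in A4573 on the log2 scale. The SK-N-MC value is a ratio of 1.2, whose counting interval, 0.994 to 1.46, includes no change. For DPP4 the log2 ratio without over with STAG2 was 2.424 in SK-N-MC and -1.717 in A4573.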

How the results depend on the processing

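Of 307 values of members under alternatives, 270 kept their direction (or were not called in either) and their side of the threshold, 35 lost a call, 2 gained one and 0 reversed a call. For EZH2 KO, SUZ12 KO and STAG1 KO, omission of the parental library and the WT clone as the only control are the same fit. It was counted under both names. NPY in STAG2 KO stayed called in all 19 alternatives, from -3.76 to -3.32, and DPP4 in all 11 alternatives each of EZH2 KO (5.27 to 6.04) and SUZ12 KO (5.63 to 6.39). NPY and CCK in the knockdown kept their calls in all 11. The lost calls were in NPY1R and NPY5R. NPY5R in EZH2 KO gained a call with DESeq2 (adjusted p = 0.0477) and with only EZH2 KO and controls in the fit (0.041, edgeR). Omitting 1 library gave 1053 to 4048 genes called for STAG2 KO, the extremes being without WT clone 1 and without STAG2 KO clone 5 of experiment 2, and 3663 and 494 were called in experiments 1 and 2 alone. For EZH2 KO, omission gave 1 to 2 members and 1169 to 1760 genes, and for SUZ12 KO 1 to 3 members and 1874 to 3238 genes. With the WT clone as the only control, 1 member each and 1441 genes (EZH2 KO) were called. For STAG1 KO, omission gave 0 to 1310 genes, DESeq2 1914 and the WT clone alone 0 (members 0 throughout); with 1 control left, it is assumed to vary like the other libraries. In the knockdown, omission gave 3 to 4 members and 1750 to 2533 genes. Same-numbered knockdown libraries deviated together with r of 0.0257, 0.0372 and 0.00402, so the numbers were not taken as pairs; with a replicate block, 4 members and 2881 genes were called and NPY was at -1.81. The cause of these changes was not tested. Depth limits DPP4 in controls (0 to 9 counts), NPY2R throughout and CCK in A4573 with KI (3 counts).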
